A study of Mus musculus with 9 samples.

Results

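Poly(A)-enriched RNA of white adipose tissue was sequenced from male mice of the inbred strain C57BL/6. There were 3 groups of 3 libraries: normal diet with vehicle, high fat diet with vehicle, and high fat diet with B-LGND2, with 9 weeks on the regimen. The series title places B-LGND2 among ligands of estrogen receptor beta; the dose, the age of the mice and the fat depot were not given in the sources used here. Described here are 100 of the 39130 rows of the count table, selected on their levels in these same libraries as the rows that stood highest on the high fat diet with vehicle. Each count was scaled by the total of its library to CPM, the usual unit of relative abundance. Rows were ranked if they averaged 5 CPM or more over all 9 libraries, and 15095 did. A row could thus be ranked through its high fat diet vehicle levels alone. The lowest of the 3 high fat diet vehicle libraries was divided by the highest of the other 6 libraries, with 0.1 CPM added to each. The ratio exceeded 1 in 144 rows, or 0.954% of the rows ranked, and the 100 largest ratios were kept. All 100 rows are therefore higher on the high fat diet with vehicle than in either other group by choice, and neither that nor their lower level with B-LGND2 is a result.

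White fat stores energy as triglyceride and releases it as fatty acids. A diet rich in fat enlarges fat cells, and the tissue of obese mice is known for remodelling of its matrix and for the entry of macrophages. Estrogen receptor beta is a nuclear receptor, a protein that binds a hormone and then regulates transcription at DNA. None of these processes could be looked up in the 100 rows. Rows are named by GI numbers, an older numbering of sequence records; no gene symbol stands beside them in the files, and 0 of them equalled a gene ID of the RefSeq gene table used for look-up. Rows are therefore given by their rank in the ratio, with the GI number for 3 of them. The label of the tissue could not be checked against markers, no marker of another cell type could be looked up, and no sequence is shown. In whole tissue, more cells of a type and more RNA per cell cannot be told apart.

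Total counts lay between 30067542 and 43129222 per library. Normal diet vehicle replicate 2 stands apart from replicates 1 and 3 of its group: 115 rows at 100 CPM or more in both of those were at 1 CPM or less in it. The 115 rows made up 11.4% and 11.5% of all counts in replicates 1 and 3 and 0.00332% in replicate 2. In the high fat diet vehicle libraries they made up 6.65%, 1.86% and 2.14%, and 0.0173%, 4.80% and 0.0198% with B-LGND2, so the libraries of that group differed too. Of the 100 rows described here, 0 are among those 115. To be chosen, such a row would have needed more than 100 CPM in every high fat diet vehicle library. Even so, CPM values of all rows divide by totals that hold the 115 rows. The comparisons with the normal diet are given with and without this library where it moved them.

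The 100 rows made up a small part of each library. Their summed share of all counts was 0.374%, 0.463% and 0.605% in high fat diet vehicle replicates 1, 2 and 3. It was 0.189%, 0.246% and 0.186% in the normal diet libraries and 0.27%, 0.261% and 0.246% with B-LGND2. The group means were 0.481 ± 0.117% (SD, n = 3) on the high fat diet with vehicle, 0.207 ± 0.034% (SD, n = 3) on the normal diet and 0.259 ± 0.0126% (SD, n = 3) with B-LGND2. The order of the groups follows from the choice of rows. Among the libraries of 1 group, those of the high fat diet with vehicle differed most and those with B-LGND2 least.

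**Figure D1:**
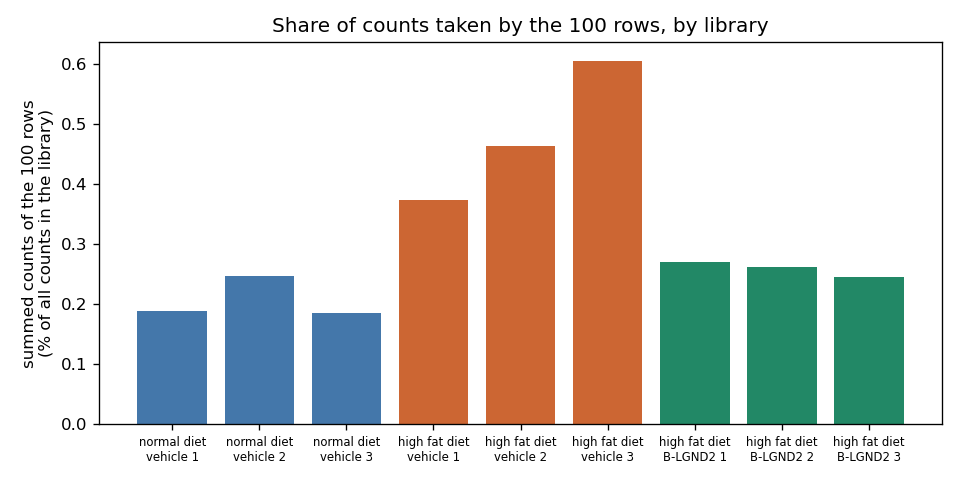
Summed counts of the 100 rows as a percentage of all counts, 1 bar per library, coloured by group. The high fat diet vehicle bars run from 0.374 to 0.605%, and the highest of the other 6 is 0.27%.

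GI 31542808 had the largest ratio, 3.30. It was at 31.6, 54.5 and 48.2 CPM in the high fat diet vehicle libraries, at 2.86, 8.22 and 1.90 CPM on the normal diet and at 9.51, 7.36 and 5.47 CPM with B-LGND2. Its mean on the high fat diet with vehicle was 10.3 times that on the normal diet and 6.01 times that with B-LGND2. The high fat diet vehicle libraries lie far above the rest, and normal diet replicate 2 lies among the B-LGND2 libraries.

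GI 41055979 followed, with a ratio of 3.20. It was at 36.5, 18.1 and 110 CPM on the high fat diet with vehicle, at 1.62, 1.74 and 0.71 CPM on the normal diet and at 5.59, 3.75 and 3.27 CPM with B-LGND2. On the high fat diet with vehicle its mean of 54.7 CPM, with an SD of 48.4 CPM (n = 3), was 40.4 times the normal diet mean, the highest such value of the 100 rows, and rested largely on replicate 3. Here all 3 B-LGND2 libraries were above all 3 normal diet libraries, and normal diet replicate 2 was close to the others of its group.

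The row of rank 4 was at 296, 465 and 724 CPM on the high fat diet with vehicle, at 51.7, 138 and 19.3 CPM on the normal diet and at 137, 78.9 and 116 CPM with B-LGND2. Normal diet replicate 2 was the highest of the 6 other libraries, level with the top B-LGND2 library. Rank 17 was at 253, 455 and 404 CPM in the high fat diet vehicle libraries and at 181, 124 and 94.9 CPM with B-LGND2. On the normal diet it was at 10.7 and 14.3 CPM in replicates 1 and 3 but at 91.9 CPM in replicate 2, just under the lowest B-LGND2 library.

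**Figure D2:**
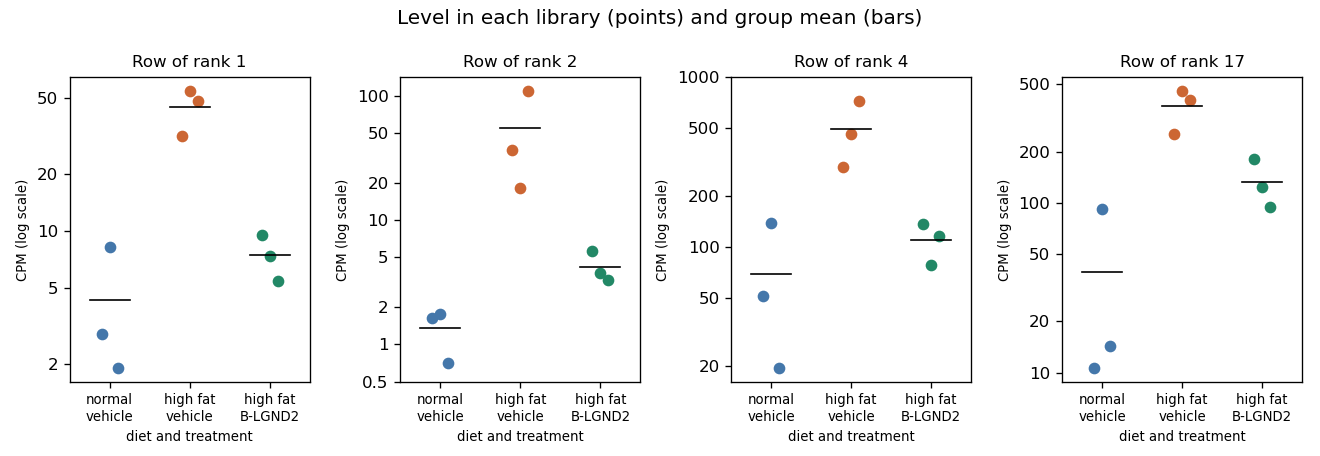
CPM on a log axis in each library (points) with the group mean (horizontal bars) for the rows of rank 1, 2, 4 and 17; scales differ between panels. Each high fat diet vehicle point lies above the other 6 points, and in the row of rank 17 the normal diet point at 91.9 CPM is replicate 2.

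Ratios fell off quickly after the leading rows. Of the 100 rows, 6 had a ratio of at least 2, 11 of at least 1.5 and 26 over 1.2, while 47 were under 1.1; the median was 1.12. The last row kept had a ratio of 1.029, with 12.3 CPM in the lowest high fat diet vehicle library against 11.95 CPM in the highest other library, which was B-LGND2 replicate 1. The next row, outside the limit, had a ratio of 1.028, with 18.9 against 18.4 CPM. The exact 95% Poisson intervals of the lowest high fat diet vehicle library and the highest other library were apart in 35 of the 100 rows and overlapped in 65. The intervals cover counting error alone. The largest ratio with overlapping intervals was 1.29, and the smallest with separate intervals 1.06.

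The margins also depend on how libraries are scaled. Scaling by trimmed means of log ratios (TMM, which estimates library size from rows near the middle of the distribution) kept the ratio above 1 in 52 of the 100 rows. Among the 11 leading rows it was above 1 in all 11, and among the first 25 in 22, but among the last 50 in 14. The 2 leading rows had TMM ratios of 2.92 and 3.24. The order among the leading rows changed, with rank 2 then above rank 1.

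**Figure D3:**
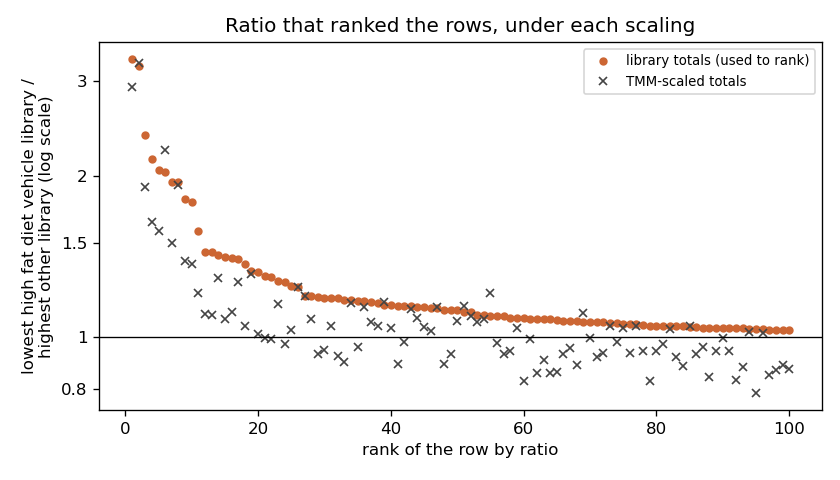
Ratio of the lowest high fat diet vehicle library to the highest other library (log axis) against rank, on library totals (circles) and on TMM totals (crosses), with a line at 1. All circles lie above the line by choice, and 52 of the 100 crosses do.

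The same selection was applied to every choice of 3 of the 9 libraries, as a description of how many rows such a rule returns. Over the 84 choices the number of rows with a ratio above 1 ran from 3 to 1507, with a median of 61.5. The 3 high fat diet vehicle libraries, with 144 rows, came 23rd, behind 22 other choices, among them the 3 B-LGND2 libraries. The largest count came from high fat diet vehicle replicates 1 and 3 with B-LGND2 replicate 2. By the largest single ratio, the high fat diet vehicle libraries came 5th, and the highest value of any choice was 6.95. The 3 B-LGND2 libraries returned 908 rows, the 3 normal diet libraries 98, and 161 rows were lowest in all 3 high fat diet vehicle libraries.

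The size of the difference varied widely among the rows. The mean on the high fat diet with vehicle was 1.94 times the normal diet mean in the median row, with quartiles of 1.499 and 3.802, and 1.68 times the B-LGND2 mean, with quartiles of 1.36 and 2.80. Over all 15095 ranked rows these medians were 1.09 and 1.00. In 49 rows the first was at least 2, in 38 the second was, and in the same 38 both were. The 100 rows had mean levels between 5.04 and 246 CPM, with a median of 14.6 CPM; 33 were under 10 CPM and 5 over 100 CPM. The smallest count in any lowest high fat diet vehicle library was 142.

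Within the high fat diet vehicle group, replicate 3 was the highest library in 73 of the 100 rows and replicate 1 the lowest in 62. Over all ranked rows these shares were 36.5% and 35.8%. On TMM totals they were 61 and 76 of 100, against 29.2% and 39.0% of all ranked rows. The highest of the 3 libraries exceeded the lowest by 1.55 times in the median row and by 9.70 times in the most uneven row. In 48 rows the 3 libraries lay within 1.5-fold of each other, against 37.1% of all ranked rows.

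In 25 rows replicate 3 was at least 2-fold above both other high fat diet vehicle libraries, which held for 10.3% of all ranked rows. The high fat diet vehicle levels counted towards the minimum for ranking and chose the rows, so no excess is read from this. Among these 25, which were picked out after their values were seen, replicate 3 exceeded the higher of replicates 1 and 2 by 2.74 times in the median row and by up to 5.76 times. Rank 10 is an example, at 9.78 and 9.95 CPM in replicates 1 and 2 and at 51.9 CPM in replicate 3. On the normal diet it was at 1.08, 5.44 and 1.95 CPM, and with B-LGND2 at 4.02, 3.68 and 2.92 CPM. Rank 19 was at 8.03, 8.70 and 50.1 CPM in the high fat diet vehicle libraries, and no other library passed 6.01 CPM. In both rows replicates 1 and 2 were nearly level, and replicate 3 stood far above them. Without replicate 3 the high fat diet mean of the 25 rows fell from 3.71 to 2.04 times the normal diet mean in the median row. Against the B-LGND2 mean it fell from 2.88 to 1.56 times. A fall follows from picking rows in which replicate 3 was high, and only its size is described. Over all 100 rows the median without replicate 3 was 1.81 times the normal diet and 1.43 times the B-LGND2 mean. The part of cell types, RNA quality or the animal behind replicate 3 was not tested.

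**Figure D4:**
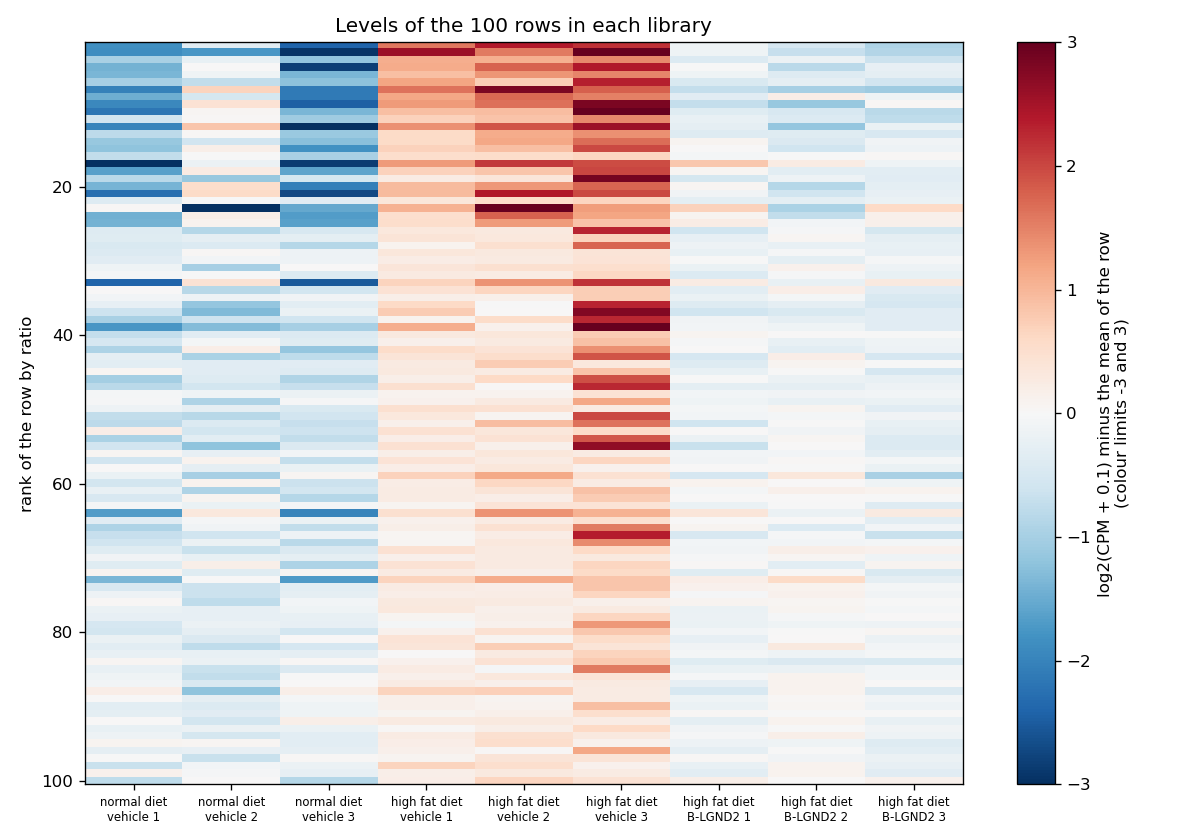
Level of each of the 100 rows in each library, as log2(CPM + 0.1) minus the mean of the row, ordered by rank; red is above and blue below the mean of the row. Replicate 3 is the highest of the high fat diet vehicle columns in 73 rows, against 36.5% of all ranked rows. Replicate 2 is the highest of the normal diet columns in 51, against 43.4%.

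Normal diet replicate 2 was at least 2-fold above both other normal diet libraries in 18 rows, against 15.4% of all ranked rows. In those 18 it exceeded the mean of replicates 1 and 3 by 3.81 times in the median row. Rank 7 was at 0.65 and 0.61 CPM in normal diet replicates 1 and 3 but at 4.77 CPM in replicate 2, below 9.40, 21.6 and 10.5 CPM on the high fat diet with vehicle. With B-LGND2 it was at 1.77, 1.45 and 1.37 CPM, so that replicate 2 of the normal diet was above every B-LGND2 library while replicates 1 and 3 were below. In these 18 rows the high fat diet vehicle mean was 4.68 times the normal diet mean in the median row with all libraries. It was 11.2 times without replicate 2, and a rise follows from picking rows in which replicate 2 was high. Both this high replicate 2 and the high replicate 3 on the high fat diet were seen in 4 rows. In 61 rows neither was. How often all ranked rows had both was not counted. Without normal diet replicate 2 the median over the 100 rows was 2.07 times the normal diet, against 1.94 times with it.

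Some rows followed each other closely. Of 4950 pairs among the 100 rows, 11 pairs, holding 16 rows, correlated above 0.99 in log2 CPM over the 9 libraries. All 100 rows were chosen for the same pattern over these libraries, so this is a description. No row had the same 9 counts as another row of the table (0 of 100). How reads matching several records were counted was not stated, and rows may share reads.

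Both the normal diet and the B-LGND2 libraries entered the selection as its ceiling, without regard to which was higher, so the direction between them was left free and was tested. The test asks whether the level with B-LGND2 differed from that on the normal diet. A lack of calls cannot show that the rows returned to the normal diet level. Diet and ligand differ together here, and since both groups had to lie under the high fat diet vehicle level, rows with a wide gap between them were less likely to be chosen. With limma-voom over all 28831 tested rows, 0 of the 100 rows were called higher and 0 lower with B-LGND2 at an adjusted p under 0.05, against 0% of all tested rows in each direction. Limma-trend called 0 as well. At an unadjusted p under 0.05, 2 of the 100 rows were higher and 1 lower, against 5.53% and 4.53% of all tested rows. Without normal diet replicate 2, 22 were higher and 2 lower at that p, against 12.7% and 13.4%, so the count of higher rows turned from below to above the share of all rows. Scaled by library totals, the same fit put 12 higher and 0 lower, against 11.4% and 1.83%. The fitted log2 difference was 0.15 in the median row, with quartiles of -0.05 and 0.43, and was above 0 in 66 rows. Over all tested rows the median was 0.07, with quartiles of -0.33 and 0.51. On library totals the median of the 100 rows was 0.31 and that of all tested rows 0.24, with 87 of the 100 above 0. The quartiles over all tested rows were then -0.16 and 0.68, so those rows were shifted upward too. How many of all tested rows lay above 0 was not counted on either scaling. The quartiles of the 100 rows lay inside those of all tested rows with every library in the fit, in a difference that the choice of rows itself narrows. They ran from -0.10 to 0.68 without normal diet replicate 2, against -0.54 to 0.52 over all tested rows, so that the upper quartile of the 100 rows was then the higher.

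**Figure D5:**
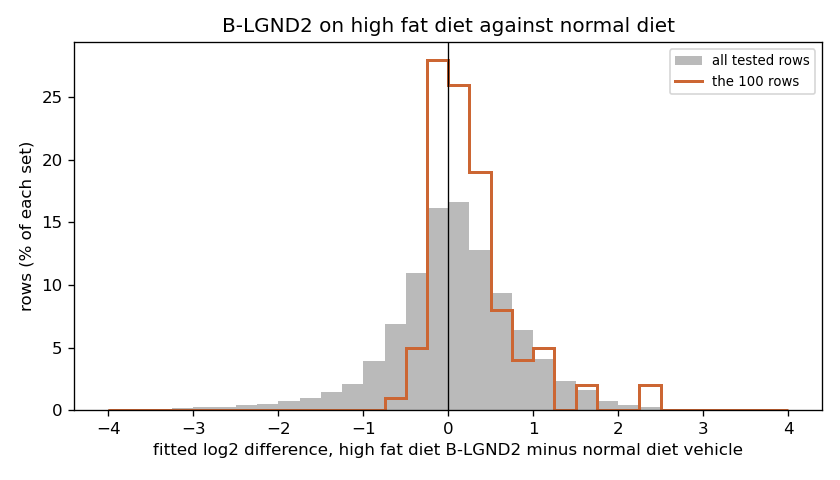
Distribution of the fitted log2 difference between mice with B-LGND2 and mice on the normal diet, as a percentage of the 100 rows (line) and of all 28831 tested rows (grey), in bins of equal width; 111 of all tested rows lie outside the axis. The median is 0.15 for the 100 rows and 0.07 for all tested rows.

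Counts of rows whose groups did not overlap differed between scalings and were higher with normal diet replicate 2 left out. On library totals, all 3 B-LGND2 libraries were above all 3 normal diet libraries in 26 of the 100 rows and below them in 1, against 18.8% and 3.16% of all ranked rows. On TMM totals they were above in 8 and below in 6, against 6.92% and 9.75%. Against normal diet replicates 1 and 3 alone, they were above in 57 and below in 5 on library totals, beside 45.3% and 22% of all ranked rows. On TMM totals they were then above in 45 and below in 11, beside 36.3% and 28.3%. Many rows thus passed from overlap to no overlap once replicate 2 was left out, among the 100 and among all ranked rows. Leaving out any library cannot lower such counts. The counts without replicate 1 or 3 instead were not made, so the rise cannot be tied to replicate 2.

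The row of rank 17 had the smallest p of those higher with B-LGND2 than on the normal diet. Its log2 difference was 2.28 ± 0.79 (SE), and its adjusted p in limma-voom was 0.455. Without normal diet replicate 2, where it was at 91.9 CPM, the difference was 3.22 ± 0.39 (SE) and the adjusted p 0.00793; over the 16 alternative fits the adjusted p ran from 0.00793 to 0.987. In its levels this row was intermediate with B-LGND2, 3.42 times the normal diet mean and below the high fat diet vehicle mean by 2.79 times. GI 142351289, the row of rank 84, had the smallest p in the other direction. It was at 34.0, 32.2 and 31.5 CPM with B-LGND2, at 45.7, 38.4 and 44.6 CPM on the normal diet and at 48.0, 59.2 and 74.8 CPM on the high fat diet with vehicle. It is the row in which all 3 B-LGND2 libraries lay below all 3 normal diet libraries on library totals. Its log2 difference was -0.57 ± 0.19 (SE). Its adjusted p in limma-voom was 0.445, and from 0.114 to 0.987 over the alternative fits. For the 2 leading rows the difference was above 0 in each of the 16 alternative fits, from 0.45 to 1.54 for GI 31542808 and from 1.11 to 1.90 for GI 41055979, with adjusted p-values from 0.0885 to 0.987 and from 0.272 to 0.987.

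Leaving out normal diet replicate 2 changed these calls. Limma-voom then called 5 of the 100 rows higher with B-LGND2 than on the normal diet, those of rank 8, 17, 33, 64 and 73, and 0 lower, against 2.47% and 3.63% of all tested rows. Their adjusted p-values ran from 0.00793 to 0.0411. Rank 8 was at 9.71, 14.1 and 11.2 CPM with B-LGND2 and at 4.40 and 2.76 CPM in normal diet replicates 1 and 3, and replicate 2 lay between at 8.47 CPM. Its log2 difference without replicate 2 was 1.56 ± 0.33 (SE). On the high fat diet with vehicle it was at 27.6, 40.6 and 35.5 CPM. The fit without replicate 2 rests on 2 normal diet libraries. Without normal diet replicate 1 or replicate 3 instead, 0 of the 100 rows and 0 of all tested rows were called. With B-LGND2 replicate 2 left out as well, 5 of the 100 rows were called higher, beside 1920 of all 29949 tested rows. No excess among the 100 rows is read from the 5.

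As a description, each row was placed between the normal diet mean, set at 0%, and the high fat diet vehicle mean, set at 100%. On library totals, B-LGND2 lay at 16.7% in the median row, with quartiles of 5.91% and 26.1%. It lay under 50% in 97 rows, among them 15 where the B-LGND2 mean was below the normal diet mean, and at 50% or more in 3. The median was 16.5% without normal diet replicate 2. On TMM totals the median was 5.35%, with quartiles of -8.74% and 17.3%, and the B-LGND2 mean was below the normal diet mean in 39 rows. It was above in 61, beside 7825 of the 15095 ranked rows. That count over all ranked rows was not made on library totals. The high fat diet vehicle mean is fixed above both others by the choice of rows, so these positions carry no test.

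The contrasts that chose the rows are given only as values. For the high fat diet against the normal diet, with vehicle, limma-voom called 0 of the 100 rows, against 0% of all tested rows in each direction. At an unadjusted p under 0.05, 56 were higher, against 4.3% of all tested rows, and the median log2 difference was 0.74. Without normal diet replicate 2, 19 of the 100 were called higher, against 0.211% of all tested rows. For B-LGND2 against vehicle, both on high fat, 0 of the 100 rows were called, again against 0%. At an unadjusted p under 0.05, 36 were lower with B-LGND2, against 1.69% of all tested rows, and the median log2 difference was -0.62. Without normal diet replicate 2, 0 of the 100 were called lower, against 0.0234% of all tested rows. These 2 contrasts share the high fat diet vehicle libraries, and the rows were chosen on both, so nothing is read from their counts.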

How the data were processed

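Raw read counts were deposited by the authors in 1 table, with a row per GI number and a column per library. Per the submitters' processing notes, STAR 2.5.2 and the build mm9 were named without a role; counting, annotation and use of strand were not given in the sources used here. All values were whole numbers with different totals per library, but the automatic check of units could not read the columns. Columns were matched to groups by the sample numbers in the titles. Replicates were numbered in accession order and pair nothing. No label ties a library to 1 animal, so p-values measure only variation among libraries, which may be technical.

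Limma-voom therefore took the place of the planned quasi-likelihood count test, which was not run. A row was tested if 3 libraries or more reached the equivalent of 10 counts at the median library size and its counts summed to 15 or more. Scaling was by TMM (trims of 0.3 and 0.05). A group-means model over the 9 libraries was fitted with limma 3.58.1 in R 4.3.3. Tests were two-sided, and p-values adjusted by Benjamini-Hochberg were called under 0.05. The procedure was run on simulated counts with the same spread in every row and no library that stood apart. How it performs with a library such as normal diet replicate 2 was not tested. Python 3.11.15 and matplotlib 3.10.9 were used for the rest.

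The 100 rows, lists and tests were chosen with earlier results of these data known. GI numbers were printed for the 2 largest ratios and for the row with the smallest p that was lower with B-LGND2 than on the normal diet; other rows are given by rank. The rows of rank 4, 7, 8, 10 and 19 were picked after their values were seen. Marker and pathway lists could not be used without gene names. Alternatives comprised other scalings, filters and minima, fits on only the groups compared, leaving out each library, and leaving out replicate 2 of both the normal diet and the B-LGND2 group. A fit by limma-trend was added after the data were seen.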

Additional observations from a re-analysis of the deposited data

How the results depend on the processing

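The number of rows with a ratio above 1 (144) was 63 on TMM totals, 55 on median-of-ratios totals, 327 with a minimum mean of 1 CPM, 64 with one of 20 CPM and 388 without replicate 2 of the normal diet and of B-LGND2. Only rows with a ratio above 1 could be listed among the 100 largest. The lists on TMM totals, on median-of-ratios totals and with 20 CPM therefore held 63, 55 and 64 rows. They included 49, 40 and 39 of the 100 rows. The 52 given earlier on TMM totals covered all 100 rows, while here 15032 rows reached the minimum mean. With 20 CPM, rows of lower mean could not be listed, and the median of the 100 rows was 14.6 CPM. With 1 CPM and without both replicate 2 libraries, 37 and 51 were among the 100 largest ratios. In both settings all 100 kept a ratio above 1. With each library left out in turn there were 164 to 1618 rows with a ratio above 1. Of the 100 rows, 3 to 86 were again among the 100 largest ratios, while 87 to 100 kept a ratio above 1. The extremes of 1618 and 3 came without high fat diet vehicle replicate 2. There were 663 and 34 without its replicate 1, 251 and 56 without its replicate 3, and 306 and 64 without B-LGND2 replicate 2. Without both replicate 2 libraries, limma-voom called 1920 of 29949 tested rows above the normal diet level with B-LGND2, among them 5 of the 100. It called 1774 below that level, among them 0 of the 100. It then called 67 higher and 206 lower for diet, and 23 higher and 59 lower for B-LGND2 against vehicle. Without each library in turn these counts ran from 0 to 738 and 0 to 1087, with 0 to 5 of the 100 rows higher, from 0 to 63 and 0 to 197 for diet, and from 0 to 1 and 0 to 7 for B-LGND2 against vehicle. The highest values all came without normal diet replicate 2. For B-LGND2 against vehicle, 1 row was called higher on library totals and with a minimum mean of 5 CPM, and 3 lower with only the groups compared. Their cause was not tested. The median log2 difference over the 100 rows, B-LGND2 against normal diet, was 0.15 and ran from 0.09 to 0.31 over the 16 alternatives. Each change was smaller than 0.196, the pooled SD between libraries of these 2 groups in the median level of the 100 rows. That limit is larger than the median difference itself, so staying under it does not show that the difference was stable. DESeq2 was not run. No paired analysis was possible because the labels pair no libraries. At these depths, the counting intervals on both sides of the margin overlapped in 65 of the 100 rows.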
